A study of Mus musculus with 20 samples.

Results

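The metalloproteases that cut extracellular matrix and cell surface proteins, and the Timp proteins that inhibit them, were followed in the mouse uterus 2 h and 24 h after a single dose of an estrogenic compound. The genes were chosen by name: every probe of the array whose gene symbol begins with Mmp, Timp, Adam or Adamts and a number was taken, which gave 123 probes for 70 genes, out of 41174 probes and 27962 distinct gene names in all. For each gene the probe with the highest mean intensity over the 20 arrays was used, and 61 of the 70 genes had 1 group or more in which every array was well above background. The remaining 9 genes (Adam7, Adam22, Adam29, Adamts13, Adamts20, Mmp1a, Mmp13, Mmp20 and Mmp21) were well above background on 0 to 3 arrays and are not described further. The 61 genes comprise 17 Mmp genes, 4 Timp genes, 11 Adam genes known from somatic tissues, 14 Adam genes known from the male germ line and 15 Adamts genes.

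All mice were ovariectomized C57bl6/J females of 10 weeks or more, rested for 10 to 14 days after surgery and injected subcutaneously in 100 µl of sesame oil. There were 7 groups: vehicle (oil alone, 3 arrays), estradiol (E2, 250 ng) at 2 h (3 arrays) and 24 h (2 arrays), bisphenol A (BPA, 750 µg) at 2 h and 24 h (3 arrays each) and HPTE (750 µg), the estrogenic metabolite of methoxychlor, at 2 h and 24 h (3 arrays each). Each array held labelled RNA of 1 uterus. Vehicle, route, dye and the use of single uteri are given as the sample labels state them. For E2, BPA and HPTE the methods of the study describe pooled uteri and a pair of dyes, with E2 in saline given into the abdomen. One-colour arrays are described there for estriol. The study also mentions a later repeat with new samples, and the arrays used here are that repeat. The vehicle uteri were labelled 24 h and served as the control for both times, so that all 6 comparisons with vehicle share the same 3 arrays. Levels are log2 processed intensities relative to the 75th percentile of the same array, so that 0 is the level of that percentile and 1 unit is a doubling. They are not comparable between genes, because each gene has its own probe. Changes are differences of group means ± SE from a linear model over all arrays, and a gene was called when its adjusted p was under 0.05. Because whole uteri were measured, fewer cells of a type and less RNA per cell cannot be told apart.

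Mmp proteins are zinc proteases that are secreted or held at the membrane and that cleave collagens, gelatins, laminin and other matrix proteins. Adamts proteins are secreted relatives, some of which (Adamts1, Adamts4, Adamts5, Adamts8, Adamts9 and Adamts15) cut the proteoglycans versican and aggrecan, and some of which (Adamts2 and Adamts3) trim procollagen. Most Adam proteins sit in the plasma membrane, where the catalytic ones shed growth factors, cytokines and receptors. The Timp proteins bind the active site of these enzymes. In the rodent uterus estrogen causes an early phase of swelling and a later phase of epithelial growth, and the matrix is remodelled during both.

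Of the 20 arrays, 72.7% to 81.4% of probes were well above background, and the 11 uterine identity markers, among them Esr1, Hoxa10 and Hoxa11, were above background on every array. Their levels were not steady: they summed to 59.3 to 64.7 on the vehicle arrays and to 23.3 to 47.5 at 2 h after BPA. After E2, BPA and HPTE, 4, 9 and 8 of the 11 were called lower at 2 h and 7, 0 and 2 at 24 h. The shares of all probes called either way were 28.1%, 49.4% and 48.1% at 2 h and 63.8%, 13.1% and 34% at 24 h. Marker lists for other cell types showed that several arrays carried RNA that is not typical of the uterus. The 19 markers of maturing sperm cells summed to 35.9 to 121 on the vehicle arrays (in units of the array's 75th percentile), against 0.614 to 14.9 on the treated arrays. The 13 measured markers of exocrine pancreas summed to 3525 on E2 2 h replicate 2, to 211 on E2 2 h replicate 3 and to 6.48 and 16.5 on the E2 24 h arrays, against 0.476 to 0.930 on the 15 arrays without E2. The macrophage markers summed to 255 on BPA 2 h replicate 1, against 101 to 112 on the vehicle arrays. The 9 lymphocyte markers summed to 7.88 and 6.36 on BPA 2 h replicates 1 and 2, against 1.69 to 2.42 on the vehicle arrays. Without E2 2 h replicate 2 or 3, the arrays with the pancreas markers, 17 or 19 of the 61 genes were called at 2 h after E2, against 20 with all arrays.

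At 2 h more of the called genes were lower than higher after each compound, and 9 of the lower ones were male germ line Adam genes each time. After E2, 20 of the 61 genes were called, 4 higher and 16 lower, beside 28.1% of all 32460 probes tested. After BPA, 30 were called, 8 higher and 22 lower, beside 49.4% of all probes. After HPTE, 31 were called, 9 higher and 22 lower, beside 48.1% of all probes. These shares of the genes (32.8%, 49.2% and 50.8%) were near those of all probes. The median change over the 61 genes was -0.22 after E2, -0.28 after BPA and -0.31 after HPTE, against -0.06, -0.10 and -0.09 over all probes. With no scaling of the arrays 2 of 26 called genes were higher after E2, and with scaling on the spike-in control spots 8 of 19 were higher after HPTE. Without the 14 male germ line Adam genes, the counts were 11, 21 and 22 of 47, of which 4, 8 and 9 were higher. Among all called probes, 39.5%, 39% and 41.4% were higher after E2, BPA and HPTE. The median changes of the germ line genes were -1.71, -1.32 and -1.46 in that order. Those of the Mmp genes were 0.01, -0.26 and -0.48, and those of the Adamts genes 0.01, -0.07 and 0.00025. By family, 4, 8 and 9 of the 17 Mmp genes were called after E2, BPA and HPTE, 0, 1 and 1 of the 4 Timp genes, 2, 2 and 2 of the 11 somatic Adam genes, 9, 9 and 9 of the 14 germ line Adam genes and 5, 10 and 10 of the 15 Adamts genes. When each array was left out in turn, 16 of the 20 calls after E2, 24 of the 30 after BPA and 26 of the 31 after HPTE were kept every time.

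**Figure D1:**
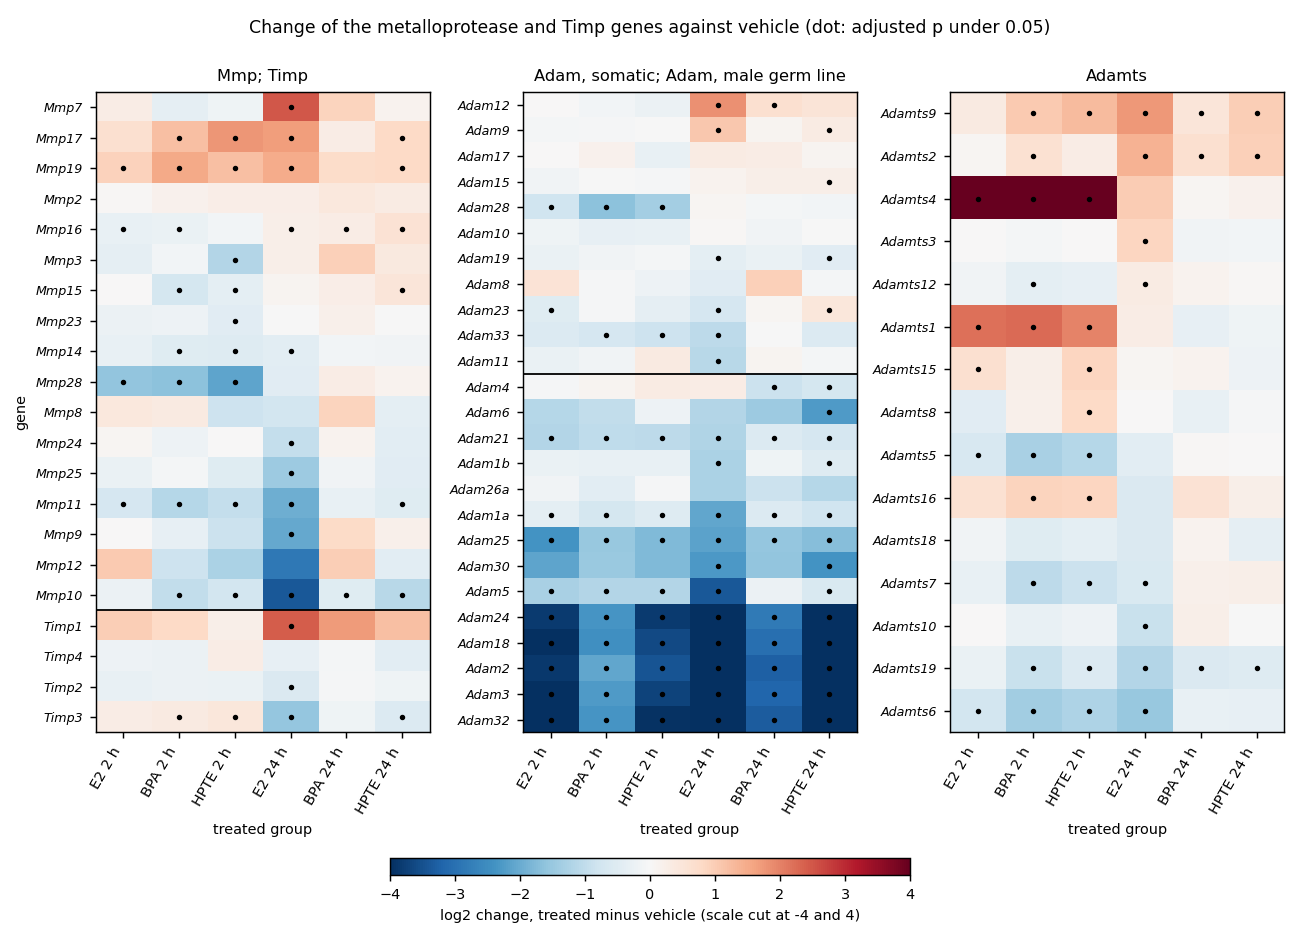
Log2 change against vehicle of the 61 genes (rows) in the 6 treated groups (columns), with 17 Mmp and 4 Timp genes in the left panel, 11 somatic and 14 male germ line Adam genes in the middle panel and 15 Adamts genes in the right panel, each ordered by the change at 24 h after E2. Red is higher and blue is lower than vehicle, the colour scale ends at -4 and 4, and a dot marks an adjusted p under 0.05; the darkest red cells are those of Adamts4 at 2 h.

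Of all 61 genes, Adamts4, a versican- and aggrecan-cutting protease, had the highest change at 2 h after each compound. Its levels were -3.51, -3.20 and -3.08 on the vehicle arrays, 0.65, 0.78 and 1.26 at 2 h after E2, 2.06, 2.19 and -0.57 after BPA and 1.72, 1.42 and 1.97 after HPTE. All 9 treated arrays lay above all vehicle arrays, and BPA replicate 3 stood well below the other 2 BPA arrays. The change was 4.16 ± 0.50 (adjusted p = 2.04e-05) after E2, which is 17.8-fold, 4.49 ± 0.50 (adjusted p = 5.24e-06) after BPA and 4.96 ± 0.50 (adjusted p = 1.70e-06) after HPTE. By 24 h the levels were -2.32 and -2.17 after E2, -3.08, -3.51 and -2.93 after BPA and -3.08, -3.24 and -2.97 after HPTE. The E2 arrays still lay above all vehicle arrays, with a change of 1.02 ± 0.56 (adjusted p = 0.126), whereas the BPA and HPTE arrays overlapped the vehicle arrays. Within the slides that held both groups, Adamts4 at 2 h was higher than vehicle by 4.29 after E2, by 2.94 and 5.26 after BPA and by 4.92 and 5.17 after HPTE.

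Adamts1, which cuts the same proteoglycans and is needed for normal ovulation, rose beside it with much less spread. Its levels were 1.99, 1.94 and 1.73 on the vehicle arrays and, at 2 h, 4.14, 3.96 and 4.16 after E2, 4.20, 4.36 and 3.88 after BPA and 3.93, 3.91 and 3.82 after HPTE. The treated arrays did not overlap the vehicle arrays, and the 3 compounds gave nearly the same level. The changes were 2.20 ± 0.17 (adjusted p = 5.06e-07) after E2, 2.26 ± 0.17 (adjusted p = 1.44e-07) after BPA and 2.0 ± 0.17 (adjusted p = 3.29e-07) after HPTE, or 4.59-, 4.79- and 4-fold. At 24 h the levels were 1.80 and 2.56 after E2, 1.69, 1.56 and 1.46 after BPA and 1.5, 1.90 and 1.78 after HPTE, and none of the 3 changes was called (0.29, -0.32 and -0.16). A second Adamts1 probe gave 2.40, 2.76 and 2.21 at 2 h, and was also called at 24 h after E2 (0.81, adjusted p = 0.00171).

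Adamts5, another protease of this group, lies next to Adamts1 on chromosome 16 and moved the other way. The Adamts1 probe lies at chr16:85790724-85790783 and the Adamts5 probe at chr16:85858359-85858419, both on the minus strand of build mm7. Adamts5, whose array values were chosen for display after they were seen, stood at 1.24, 1.47 and 1.33 on the vehicle arrays and, at 2 h, at 0.66, 0.65 and 0.82 after E2, -0.28, -0.14 and 0.55 after BPA and 0.27, 0.10 and 0.25 after HPTE. Every treated array lay below every vehicle array. The change was -0.64 ± 0.16 (adjusted p = 0.00874) after E2, -1.30 ± 0.16 (adjusted p = 1.45e-05) after BPA and -1.14 ± 0.16 (adjusted p = 3.85e-05) after HPTE, and the second probe gave -0.93, -1.38 and -1.18. With spike-in scaling the Adamts5 calls at 2 h after E2 and HPTE were lost. The call after BPA and the Adamts1 calls at 2 h were kept. At 24 h none of the 3 changes was called (-0.43, 0.05 and 0.01), although the second probe was called after E2 (-0.62, adjusted p = 0.00526).

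The promoter of Adamts1 is shown because this gene rose early with little spread and its start region was in the RefSeq table used (GRCm38.p6). The stretch covers bases -110 to -1 before the annotated start, on the minus strand at chr16:85803114-85803223, and capitals mark the letters TATAAA.
Adamts1: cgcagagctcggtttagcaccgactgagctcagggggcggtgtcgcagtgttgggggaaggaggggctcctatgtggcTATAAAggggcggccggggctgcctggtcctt
The letters TATAAA, read on the strand of the gene, occur in 8.32% of the 32851 windows of 300 bases (250 before to 50 after a start) in that table. The AP-1 letters TGANTCA, the CRE letters TGACGTCA and the ERE letters GGTCA and TGACC with any 3 bases between them, searched on both strands, were not among the letters of the Adamts1 window. They occur in 7.81%, 1.79% and 0.07% of all windows. For Adamts4 and Adamts5 no window was used.

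Adamts9, another proteoglycan-cutting member, has a pair of probes that gave different courses. Levels are those of the brighter probe. Its levels were -1.16, -0.83 and -0.76 on the vehicle arrays and, at 2 h, -0.85, -0.45 and -0.39 after E2, -0.18, 0.36 and 0.17 after BPA and 0.26, 0.34 and 0.44 after HPTE. At 24 h they were 0.84 and 0.77 after E2, -0.32, -0.64 and -0.35 after BPA and 0.11, 0.09 and 0.02 after HPTE. On this probe the E2 arrays overlapped the vehicle arrays at 2 h and were the highest of all at 24 h. The 2 h changes were 0.35 ± 0.15 (adjusted p = 0.0928) after E2, 1.03 ± 0.15 (adjusted p = 5.11e-05) after BPA and 1.26 ± 0.15 (adjusted p = 7.03e-06) after HPTE. The 24 h changes were 1.73 ± 0.17 (adjusted p = 4.15e-07), 0.48 ± 0.15 (adjusted p = 0.0461) and 0.99 ± 0.15 (adjusted p = 1.78e-04) in the same order. The BPA call at 24 h was lost when any of 4 arrays was left out: vehicle replicate 1 (0.36, adjusted p = 0.218), vehicle replicate 2 (0.53, adjusted p = 0.0683), BPA replicate 1 (0.42, adjusted p = 0.166) or BPA replicate 3 (0.44, adjusted p = 0.154). The second probe was called after all 3 compounds at 2 h, with changes of 2.18 (adjusted p = 1.86e-07) after E2, 2.32 after BPA and 2.31 after HPTE, and its changes at 24 h were 1.23, 0.43 (adjusted p = 0.0753) and 0.70. On that probe the 2 h changes were alike in size and larger than those at 24 h, whereas on the brighter probe they rose from E2 to HPTE.

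**Figure D2:**
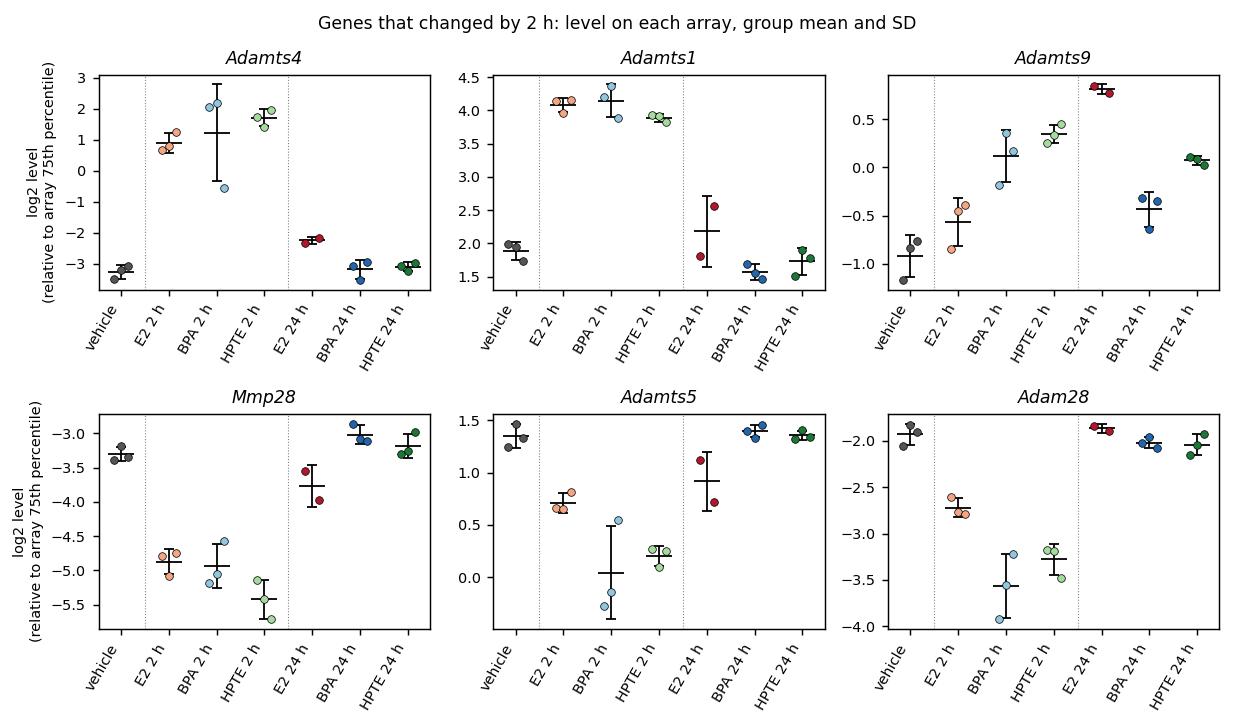
Level on each array (points), group mean (horizontal line) and SD (error bars) of 6 genes that changed by 2 h, on the log2 scale relative to the array's 75th percentile, for the 7 groups in order from vehicle to HPTE at 24 h. Adamts4 and Adamts1 stand high at 2 h on all treated arrays, Mmp28, Adamts5 and Adam28 stand low at 2 h, and the BPA and HPTE arrays of these 5 genes are back among or near the vehicle arrays at 24 h.

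Mmp17 and Mmp19 were called higher than vehicle at 2 h after BPA and HPTE and at 24 h after E2 and HPTE, and at 2 h after E2 Mmp19 was called and Mmp17 was not. Mmp17, a protease anchored to the outer membrane by a lipid, stood at 0.46, 0.60 and 0.74 on the vehicle arrays, 0.99, 1.18 and 1.56 at 2 h after E2, 2.10, 2.26 and 1.0 after BPA and 2.37, 2.23 and 2.46 after HPTE. All treated arrays were above all vehicle arrays, with BPA replicate 3 again the lowest of its group. The change was 0.65 ± 0.26 (adjusted p = 0.0775) after E2, 1.19 ± 0.26 (adjusted p = 0.00147) after BPA and 1.76 ± 0.26 (adjusted p = 5.29e-05) after HPTE. At 24 h the levels were 2.43 and 2.09 after E2, 1.0, 0.69 and 1.01 after BPA and 1.54, 1.60 and 1.07 after HPTE. The 24 h changes were 1.66 ± 0.29 (adjusted p = 1.35e-04), 0.30 ± 0.26 (adjusted p = 0.485) and 0.81 ± 0.26 (adjusted p = 0.0261). The HPTE call was lost without vehicle replicate 1 (0.74, adjusted p = 0.0869), vehicle replicate 2 (0.81, adjusted p = 0.0609), HPTE replicate 1 (0.74, adjusted p = 0.0815) or HPTE replicate 2 (0.71, adjusted p = 0.0888).

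Mmp19, a secreted protease that cleaves basement membrane proteins, stood at -4.25, -3.91 and -3.96 on the vehicle arrays, -3.15, -3.15 and -3.05 at 2 h after E2, -2.40, -2.08 and -3.08 after BPA and -2.74, -3.44 and -2.35 after HPTE. No treated array overlapped the vehicle arrays. The 2 h changes were 0.92 ± 0.25 (adjusted p = 0.0125) after E2, 1.52 ± 0.25 (adjusted p = 1.69e-04) after BPA and 1.19 ± 0.25 (adjusted p = 0.00106) after HPTE, and the first of these calls was lost without vehicle replicate 1 (0.82, adjusted p = 0.0538). At 24 h the levels were -2.45 and -2.67 after E2, -3.15, -3.59 and -3.16 after BPA and -3.31, -3.20 and -3.26 after HPTE, with changes of 1.48 ± 0.28 (adjusted p = 2.91e-04), 0.74 ± 0.25 (adjusted p = 0.0679) and 0.78 ± 0.25 (adjusted p = 0.0259). The HPTE call at 24 h was lost without vehicle replicate 1 (0.68, adjusted p = 0.0986) or without HPTE replicate 1 (0.81, adjusted p = 0.0536), replicate 2 (0.75, adjusted p = 0.0676) or replicate 3 (0.78, adjusted p = 0.0579).

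Further proteoglycan-cutting members were called after some compounds at 2 h. Adamts15 stood at -0.08, 0.39 and 0.53 on the vehicle arrays, 0.72, 1.09 and 0.99 after E2, 0.52, 0.76 and 0.24 after BPA and 1.22, 0.85 and 1.37 after HPTE. The E2 and HPTE arrays lay above all vehicle arrays and the BPA arrays overlapped them. Its change was 0.65 ± 0.17 (adjusted p = 0.0116) after E2, 0.23 ± 0.17 (adjusted p = 0.303) after BPA and 0.87 ± 0.17 (adjusted p = 7.73e-04) after HPTE, and the E2 call was lost without vehicle replicate 1 (0.47, adjusted p = 0.0641) or E2 replicate 2 (0.57, adjusted p = 0.0501). Adamts8, its neighbour among these genes on chromosome 9, was called after HPTE alone, with a change of 0.81 ± 0.20 (adjusted p = 0.00362), against 0.21 ± 0.20 (adjusted p = 0.403) after BPA and -0.46 ± 0.20 (adjusted p = 0.107) after E2. The difference between HPTE and E2 was itself called for Adamts8 (1.26 ± 0.20, adjusted p = 8.41e-04), and that between HPTE and BPA was not (0.59 ± 0.20, adjusted p = 0.161).

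Mmp28 (epilysin), a protease of keratinocytes and other epithelia, had the largest fall of the called Mmp genes at 2 h after each compound. Its array values, chosen for display after they were seen, were -3.38, -3.19 and -3.34 for vehicle, -4.79, -5.08 and -4.74 at 2 h after E2, -5.19, -5.05 and -4.58 after BPA and -5.14, -5.42 and -5.71 after HPTE. The treated arrays all lay below the vehicle arrays. The change was -1.57 ± 0.18 (adjusted p = 1.19e-05) after E2, -1.63 ± 0.18 (adjusted p = 4.04e-06) after BPA and -2.12 ± 0.18 (adjusted p = 3.20e-07) after HPTE, or 2.96-, 3.1- and 4.34-fold lower. At 24 h no change of Mmp28 was called (-0.46, 0.29 and 0.13).

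The other genes lowered at 2 h without a male germ line history belonged to the Mmp, Adam and Adamts families. Adam28, a sheddase of lymphocytes and epithelia, fell by 0.79 after E2, by 1.64 after BPA and by 1.35 after HPTE (adjusted p = 5.76e-04, 4.64e-07 and 2.05e-06), but its second probe showed no such fall (0.18, -0.17 and 0.17, none called). Adamts6 changed by -0.72, -1.39 and -1.24 in that order and Mmp11 (stromelysin-3), a stromal protease, by -0.67, -1.13 and -0.96, with all 6 changes called. Adamts7 was called after BPA (-1.04 ± 0.13, adjusted p = 1.02e-05) and HPTE (-0.85 ± 0.13, adjusted p = 4.98e-05), and its change after E2 was -0.30. Adamts19 was likewise called after BPA (-0.88) and HPTE (-0.55) and was -0.28 after E2. For Adam28, Adamts5, Adamts7 and Mmp10 the levels after BPA and after HPTE were both below those after E2 by a called difference, of -0.85 and -0.56, -0.67 and -0.50, -0.75 and -0.55, and -0.75 and -0.51. Adamts8 and Adamts9 were higher after both than after E2, by 0.67 and 1.26 and by 0.68 and 0.91. The second Adamts9 probe did not show this difference, with changes against vehicle of 2.18, 2.32 and 2.31. All of the calls between BPA and E2 at 2 h were lost when these groups alone were fitted. The dose of E2 was not that of the other compounds, so these differences compare the groups as dosed.

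By 24 h the counts of genes called against vehicle differed widely between the compounds. Compared directly, 1 of the 61 genes was called between HPTE and BPA, beside 4.08% of all probes. After E2, 38 of the 61 genes were called, 11 higher and 27 lower, beside 63.8% of all probes. After BPA, 15 were called, 4 higher and 11 lower, beside 13.1% of all probes. After HPTE, 27 were called, 9 higher and 18 lower, beside 34% of all probes. The median change of the 61 genes was -0.57, 0.05 and -0.14, against -0.15, -0.03 and -0.06 over all probes. The splits depended on the scaling: with spike-in scaling 0 of 6 called genes were higher after BPA and 0 of 12 after HPTE, and with no scaling 0 of 10 and 3 of 19. Without the male germ line Adam genes the counts were 27, 6 and 14 of 47, of which 11, 4 and 9 were higher. All of the 11, 9 and 13 germ line Adam genes called after E2, BPA and HPTE were lower. Among all called probes, 41.2%, 38.8% and 43.9% were higher. The median changes of the germ line genes were -2.23, -1.51 and -1.98, and those of the Mmp genes -0.41, 0.29 and 0.13. By family, 10, 2 and 6 of the 17 Mmp genes were called after E2, BPA and HPTE, 3, 0 and 1 of the 4 Timp genes, 6, 1 and 4 of the 11 somatic Adam genes, 11, 9 and 13 of the 14 germ line Adam genes and 8, 3 and 3 of the 15 Adamts genes. When each array was left out in turn, 30 of the 38 calls after E2, 8 of the 15 after BPA and 15 of the 27 after HPTE were kept every time. The BPA count fell to 8 without vehicle replicate 1 or BPA replicate 1 and to 9 without BPA replicate 3, and all 4 genes called higher after BPA were lost in each of these cases. With slide as a block the count was 7 after BPA and 14 after HPTE, against 15 and 27 without it. Tissue content moved as well: the 8 adipocyte markers summed to 17.97 to 22.6 at 24 h after E2 (5 called lower) and 7.84 to 68.9 after HPTE (1 called lower), against 44.3 to 102 on the vehicle arrays. The 7 measured endothelial markers summed to 22.7 to 24.2 after E2 (4 called lower), against 34.5 to 39.0 on the vehicle arrays. Of these markers, 3 were called higher after BPA, and 4 higher and 1 lower after HPTE. On the vehicle arrays the 8 smooth muscle markers summed to 416 to 466 and the 8 stromal markers to 381 to 407. After E2 these sums were 655 to 705 (5 called higher, 1 lower) and 532 to 575 (4 higher, 4 lower). After BPA they were 498 to 576 and 453 to 583 (2 higher in each list). After HPTE they were 602 to 693 (6 higher) and 557 to 597 (4 higher). The part of these cell types in the changes of the 61 genes was not tested.

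Mmp10 (stromelysin-2), a secreted protease of epithelia that cleaves laminin, fibronectin and proteoglycans, had the largest fall of the Mmp genes at 24 h after E2 and was the only one of the 61 genes that was called between HPTE and BPA. Its levels were -1.37, -1.35 and -1.12 on the vehicle arrays, -4.66 and -4.68 at 24 h after E2, -1.86, -1.54 and -1.85 after BPA and -2.23, -2.82 and -2.16 after HPTE. The groups lay in the order vehicle, BPA, HPTE and E2 from high to low with no overlap between neighbours. The change was -3.39 ± 0.17 (adjusted p = 9.63e-10) after E2, which is 10.5-fold lower, -0.47 ± 0.15 (adjusted p = 0.0499) after BPA and -1.12 ± 0.15 (adjusted p = 6.23e-05) after HPTE. The BPA call was lost without any 1 of 5 arrays, namely vehicle replicate 1 (-0.52, adjusted p = 0.0942), vehicle replicate 2 (-0.51, adjusted p = 0.0778), vehicle replicate 3 (-0.39, adjusted p = 0.136), BPA replicate 1 (-0.41, adjusted p = 0.174) or BPA replicate 3 (-0.42, adjusted p = 0.164). At 2 h Mmp10 was at -1.71, -1.34 and -1.49 after E2, -2.34, -2.28 and -2.18 after BPA and -2.05, -2.05 and -1.98 after HPTE, with changes of -0.24 ± 0.15 (adjusted p = 0.272), -0.99 ± 0.15 (adjusted p = 7.68e-05) and -0.75 ± 0.15 (adjusted p = 7.02e-04). The order of the compounds at 2 h was thus not that at 24 h.

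Mmp7 (matrilysin), a protease of glandular epithelium, lies in the same cluster of Mmp genes on chromosome 9 and had the largest rise of the 61 genes at 24 h after E2. Its levels were -4.81, -5.01 and -4.23 on the vehicle arrays, -2.10 and -2.28 at 24 h after E2, -4.56, -4.12 and -2.69 after BPA and -4.23, -4.62 and -4.74 after HPTE. Both E2 arrays lay above every vehicle array, as did BPA replicate 2 and, further up, BPA replicate 3. The change was 2.50 ± 0.43 (adjusted p = 1.12e-04) after E2, or 5.64-fold, 0.89 ± 0.38 (adjusted p = 0.142) after BPA and 0.16 ± 0.38 (adjusted p = 0.791) after HPTE. At 2 h no change was called (0.31, -0.36 and -0.18). The 10 epithelial markers summed to 276 to 306 on the E2 24 h arrays, against 96.7 to 113 on the vehicle arrays, 133 to 140 at 24 h after BPA and 166 to 180 after HPTE, and 9 of 10 were called higher after E2. After HPTE 10 of 10 were called higher (median 0.75), where Mmp7 changed by 0.16. The part of epithelial content in the changes of Mmp7 and Mmp10 was not tested.

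The promoters of Mmp3, Mmp10 and Mmp7 are shown because these genes of 1 cluster carry the same pair of motifs and moved differently. In Mmp10 and Mmp7, but not in Mmp3, the motifs lie at nearly the same places. Each stretch covers bases -110 to -1 before the annotated start on the plus strand (RefSeq, GRCm38.p6), at chr9:7445712-7445821 for Mmp3, chr9:7502232-7502341 for Mmp10 and chr9:7691980-7692089 for Mmp7. Capitals mark the AP-1 letters TGANTCA and the letters TATAAA.
Mmp3: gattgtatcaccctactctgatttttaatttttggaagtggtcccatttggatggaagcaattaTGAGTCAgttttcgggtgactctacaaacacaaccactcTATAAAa
Mmp10: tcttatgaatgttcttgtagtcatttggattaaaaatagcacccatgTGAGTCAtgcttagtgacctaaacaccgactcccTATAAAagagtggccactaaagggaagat
Mmp7: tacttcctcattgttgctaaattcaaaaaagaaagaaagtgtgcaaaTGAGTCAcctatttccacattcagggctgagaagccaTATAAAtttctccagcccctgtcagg
The AP-1 letters begin at -46 in Mmp3 and at -63 in Mmp10 and Mmp7, and the TATAAA letters at -7, -29 and -26. Of the 8 Mmp genes of this cluster with a window (Mmp13, Mmp12, Mmp3, Mmp1a, Mmp10, Mmp8, Mmp20 and Mmp7 in order along the chromosome), 7 hold both motifs and Mmp8 holds neither. In all, 32 of the 61 genes had a window, and 7 of these (21.9%) held the AP-1 letters, against 7.81% of all windows. The first share counts a gene if any of its windows matched, the second counts single windows, so they are not alike. Among the 7 genes, Mmp3, Mmp7, Mmp10 and Mmp12 are neighbours in this cluster. At 24 h after E2, Mmp10 changed by -3.39, Mmp7 by 2.50 and Mmp3 by 0.23 (adjusted p = 0.663).

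**Figure D3:**
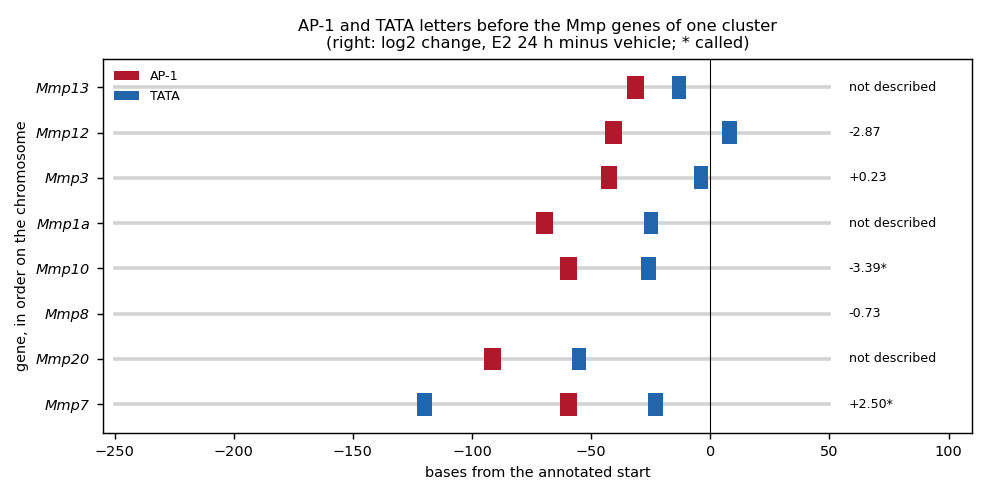
Positions of the AP-1 letters (red) and the TATAAA letters (blue) in the RefSeq windows of the 8 Mmp genes of the chromosome 9 cluster, in bases from each annotated start, with grey lines for the 300 bases searched; for genes with several annotated starts each match is drawn from its own start. The numbers at the right are the log2 change at 24 h after E2, with an asterisk where called: Mmp10 fell and Mmp7 rose with the AP-1 letters at the same distance of 63 bases.

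Mmp11 had the next largest fall of a called Mmp gene at 24 h after Mmp10 and Mmp9. Its array values, chosen for display after they were seen, were 3.66, 3.52 and 3.78 on the vehicle arrays, 1.80 and 1.59 at 24 h after E2, 3.46, 3.12 and 3.49 after BPA and 3.04, 3.13 and 3.34 after HPTE. All treated arrays lay below all vehicle arrays and the E2 arrays lowest. The change was -1.96 ± 0.16 (adjusted p = 6.91e-08) after E2, -0.30 ± 0.14 (adjusted p = 0.188) after BPA and -0.48 ± 0.14 (adjusted p = 0.0163) after HPTE, and the HPTE call was lost without vehicle replicate 3 (-0.42, adjusted p = 0.0585) or HPTE replicate 1 (-0.42, adjusted p = 0.0676).

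The gelatinases Mmp2 and Mmp9, which cleave denatured and basement membrane collagen, behaved differently. Mmp2, made by stromal cells, was at 2.72, 3.15 and 3.41 on the vehicle arrays and between 2.94 and 3.68 on the 17 treated arrays. None of its 6 changes was called, and they ran from 0.05 to 0.41. Mmp9, abundant in neutrophils and macrophages, was at -1.67, -1.44 and -1.17 on the vehicle arrays, -3.33 and -3.62 at 24 h after E2, -0.86, -0.90 and -0.23 after BPA and -0.80, -1.48 and -1.36 after HPTE. The E2 arrays lay below all others at that time, and the BPA arrays above all vehicle arrays. The change was -2.05 ± 0.39 (adjusted p = 2.72e-04) after E2, 0.76 ± 0.35 (adjusted p = 0.166) after BPA and 0.21 ± 0.35 (adjusted p = 0.678) after HPTE. At 2 h Mmp9 was at -1.19, -2.43 and -0.63 after E2, -1.97, -1.66 and -1.68 after BPA and -2.34, -2.51 and -1.98 after HPTE, with no change called on this probe. A second Mmp9 probe was called lower at 2 h after BPA (-0.55, adjusted p = 0.0403) and HPTE (-0.75, adjusted p = 0.00798). After E2 that probe gave -0.45 (adjusted p = 0.128) at 2 h and -1.98 (adjusted p = 3.41e-06) at 24 h.

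Mmp12 (macrophage elastase), Mmp8 (neutrophil collagenase) and Adam8, genes of myeloid cells, were not called against vehicle in any group. Mmp12 varied most: it ran from -3.96 to -0.94 over the vehicle arrays, was -5.71 and -4.37 at 24 h after E2, and its SE of 1.11 in the 2 h comparison with E2 was the largest of the 61 genes there. The 10 macrophage markers summed to 67.8 to 71.2 on the E2 24 h arrays, below the 101 to 112 of the vehicle arrays, and to 164 to 175 on the BPA 24 h arrays and 102 to 184 on the HPTE 24 h arrays. The 11 neutrophil markers summed to 5.55 to 8.67 on the E2 24 h arrays and 1.17 to 6.73 on the vehicle arrays, with Elane not well above background in any group. At 24 h after E2, Ngp and Camp were not well above background either. Of the 10 tested neutrophil markers, 2 were called higher and 2 lower there. Their changes ran from -3.55 to 4.36 with a median of -0.50, so the sum does not stand for the list. Of the macrophage markers, 1 of 10 was called lower at 24 h after E2 (median -0.20). The part of such cells in the Mmp9 and Mmp12 levels was not tested.

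The remaining Mmp genes changed less, with changes between -1.44 and 0.94 for Mmp3, Mmp14, Mmp15, Mmp16, Mmp23, Mmp24 and Mmp25 over the 6 comparisons. Mmp14, the membrane protease that activates Mmp2, was at 5.13, 4.84 and 4.93 on the vehicle arrays, 4.35, 4.30 and 4.75 at 2 h after BPA and 4.57, 4.47 and 4.32 after HPTE. It was called lower in both, by -0.50 ± 0.13 (adjusted p = 0.0049) and -0.52 ± 0.13 (adjusted p = 0.00384), and at 4.85, 4.53 and 4.65 after E2 its change was -0.29 ± 0.13 (adjusted p = 0.107). At 24 h it was at 4.56 and 4.56 after E2, with a change of -0.41 ± 0.14 (adjusted p = 0.0218) that was lost without vehicle replicate 1 (-0.33, adjusted p = 0.0818), E2 replicate 2 (-0.41, adjusted p = 0.0781) or E2 replicate 3 (-0.40, adjusted p = 0.0837). The second Mmp14 probe was called at 2 h after HPTE (-0.49) but not after BPA (-0.31, adjusted p = 0.105) or at 24 h after E2 (-0.09, adjusted p = 0.683). The BPA call of the first probe was lost with the compared groups alone (adjusted p = 0.0533). The 24 h levels after BPA (4.87, 4.64 and 5.01) and HPTE (4.75, 4.85 and 4.87) gave changes of -0.12 and -0.14, neither called. Mmp16, another membrane protease, was at -1.47, -1.45 and -1.38 on the vehicle arrays and -0.86, -0.82 and -0.89 at 24 h after HPTE, a change of 0.58 ± 0.08 (adjusted p = 9.46e-05). At 24 h after BPA it was at -1.08, -1.23 and -1.11, a change of 0.29 ± 0.08 (adjusted p = 0.0265) that was lost without vehicle replicate 1 (0.27, adjusted p = 0.0978), vehicle replicate 2 (0.29, adjusted p = 0.0692), BPA replicate 1 (0.26, adjusted p = 0.113) or BPA replicate 3 (0.28, adjusted p = 0.0983). Mmp25, a membrane protease of leukocytes, was called lower at 24 h after E2 (-1.44 ± 0.25, adjusted p = 1.31e-04), where 1 of its 2 arrays was not well above background.

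**Figure D4:**
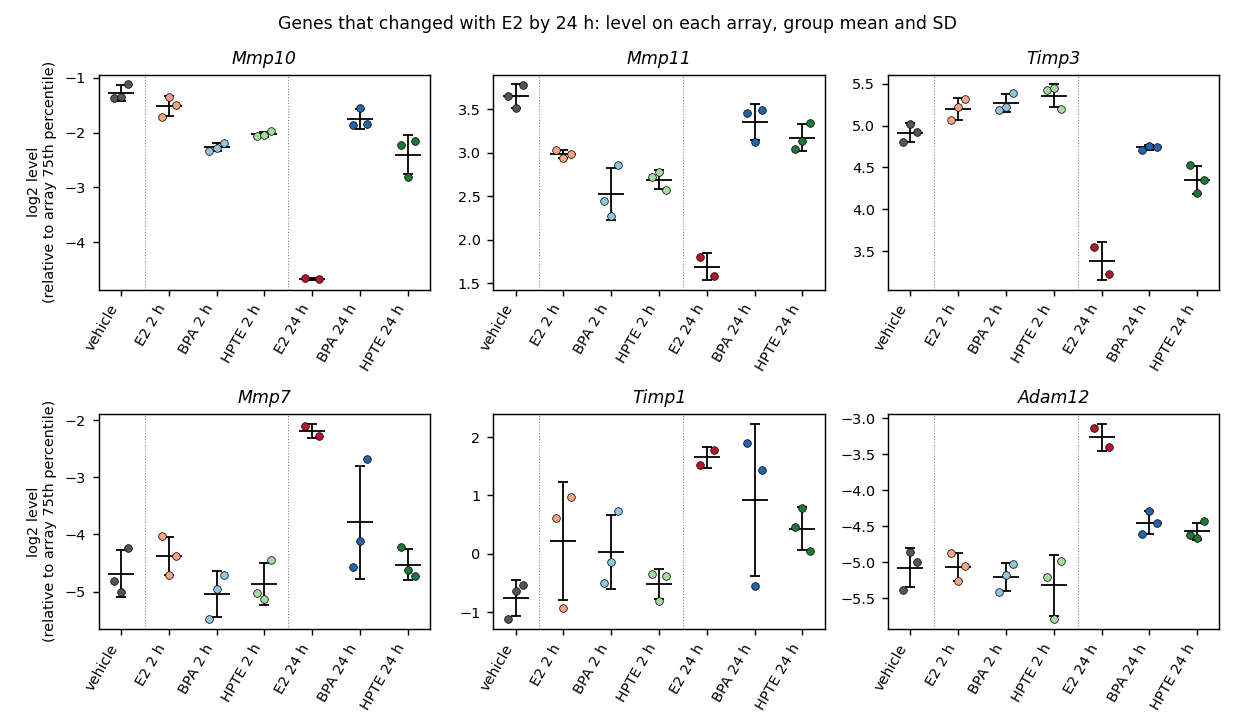
Level on each array (points), group mean (horizontal line) and SD (error bars) of 6 genes that changed with E2 by 24 h, on the log2 scale relative to the array's 75th percentile, for the 7 groups in order from vehicle to HPTE at 24 h. The E2 24 h arrays of Mmp10, Mmp11 and Timp3 lie below all other arrays, those of Mmp7 and Adam12 lie above all others, and Timp1 is spread widely within the 2 h E2 and 24 h BPA groups.

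The inhibitors moved in opposite directions at 24 h after E2. Timp1, an inducible inhibitor of most secreted Mmp proteins, was at -1.12, -0.63 and -0.54 on the vehicle arrays, 1.53 and 1.78 at 24 h after E2, 1.90, -0.56 and 1.43 after BPA and 0.46, 0.79 and 0.05 after HPTE. The E2 and HPTE arrays lay above all vehicle arrays, whereas BPA replicate 2 lay among them. The change was 2.42 ± 0.62 (adjusted p = 0.00317) after E2, 1.69 ± 0.56 (adjusted p = 0.0585) after BPA and 1.20 ± 0.56 (adjusted p = 0.112) after HPTE. The first is 5.34-fold, and a second probe gave 2.77, 2.10 and 1.47, of which the BPA value was also called (adjusted p = 0.0426). At 2 h Timp1 was at 0.61, -0.93 and 0.98 after E2, -0.51, -0.14 and 0.73 after BPA and -0.35, -0.81 and -0.38 after HPTE, and no change was called (0.98, 0.79 and 0.25).

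Timp3, which binds the matrix and also inhibits Adam17 and the proteoglycan-cutting Adamts proteins, was at 4.80, 5.02 and 4.93 on the vehicle arrays, 3.54 and 3.22 at 24 h after E2, 4.71, 4.76 and 4.75 after BPA and 4.52, 4.19 and 4.35 after HPTE. All treated arrays lay below all vehicle arrays, the E2 arrays lowest. The change was -1.53 ± 0.12 (adjusted p = 6.91e-08) after E2, or 2.89-fold lower, -0.18 ± 0.11 (adjusted p = 0.322) after BPA and -0.56 ± 0.11 (adjusted p = 0.00138) after HPTE. At 2 h the levels lay on the other side of vehicle, at 5.06, 5.22 and 5.31 after E2, 5.19, 5.22 and 5.39 after BPA and 5.42, 5.45 and 5.20 after HPTE. The 2 h changes were 0.29 ± 0.11 (adjusted p = 0.0675), 0.35 ± 0.11 (adjusted p = 0.0153) and 0.44 ± 0.11 (adjusted p = 0.00375), and the BPA call was lost without vehicle replicate 1 (0.29, adjusted p = 0.0657) or BPA replicate 3 (0.29, adjusted p = 0.0586). With spike-in scaling the BPA and HPTE calls of Timp3 were lost at both times where made, and the E2 call at 24 h was kept.

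Timp2, the inhibitor that also takes part in activating Mmp2 on Mmp14, was at 6.42, 6.32 and 6.21 on the vehicle arrays and 5.70 and 5.76 at 24 h after E2. Both E2 arrays were below all vehicle arrays, with a change of -0.59 ± 0.13 (adjusted p = 0.00115), and the 24 h changes after BPA (-0.05) and HPTE (-0.18) were not called. At 2 h the changes were -0.30, -0.25 and -0.28, none called. Timp4, an inhibitor of heart and fat tissue, was at -4.27, -4.30 and -3.44 on the vehicle arrays and none of its changes was called, the largest in size being -0.43 at 24 h after HPTE.

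Among the somatic Adam genes, the main sheddases were not called in any comparison with vehicle. Adam10, which cuts Notch receptors and cadherins, was at -3.25, -3.55 and -3.57 on the vehicle arrays and between -4.19 and -3.06 on the treated arrays, with changes from -0.34 to 0.06, none called. Adam17, which releases tumour necrosis factor and ligands of the epidermal growth factor receptor, was at 0.67, 0.69 and 0.50 on the vehicle arrays, 0.42, 0.04 and 0.55 at 2 h after HPTE and 0.99 and 0.93 at 24 h after E2. Its changes ran from -0.29 to 0.34 with 95% intervals of -0.58 to 0.01 and 0.01 to 0.66 for these 2, while its second probe gave 0.39 (adjusted p = 0.0129) at 24 h after E2 and 0.44 (adjusted p = 0.017) after BPA.

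Adam12 and Adam9 rose after E2. Adam12, a sheddase of mesenchymal cells and placenta, was at -5.38, -4.86 and -4.99 on the vehicle arrays, -3.13 and -3.39 at 24 h after E2, -4.61, -4.29 and -4.45 after BPA and -4.61, -4.66 and -4.43 after HPTE. All treated arrays lay above all vehicle arrays. The change was 1.82 ± 0.21 (adjusted p = 2.93e-06) after E2, 0.63 ± 0.19 (adjusted p = 0.0426) after BPA and 0.51 ± 0.19 (adjusted p = 0.0521) after HPTE. The BPA call was lost without vehicle replicate 1 (0.47, adjusted p = 0.204), vehicle replicate 3 (0.67, adjusted p = 0.0584) or BPA replicate 1 (0.71, adjusted p = 0.0711), replicate 2 (0.55, adjusted p = 0.118) or replicate 3 (0.63, adjusted p = 0.111). Adam9 was called after E2 at 24 h (1.08 ± 0.10, adjusted p = 3.89e-07) and after HPTE (0.33 ± 0.09, adjusted p = 0.0135), the second call being lost without vehicle replicate 3 (0.28, adjusted p = 0.0535). Adam11, a catalytically inactive Adam of the nervous system, was lower at 24 h after E2 (-1.10 ± 0.16, adjusted p = 2.12e-05). The changes of the other somatic Adam genes, Adam8, Adam15, Adam19, Adam23, Adam28 and Adam33, lay between -1.04 and 0.94 at 24 h.

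The procollagen-trimming Adamts2 and Adamts3 also rose at 24 h after E2. Adamts2 was at 2.93, 2.95 and 3.04 on the vehicle arrays, 4.35 and 4.36 after E2, 3.96, 2.96 and 3.90 after BPA and 3.97, 4.03 and 3.74 after HPTE. At 24 h BPA replicate 2 stood among the vehicle arrays and all other treated arrays above them. The change was 1.38 ± 0.22 (adjusted p = 5.07e-05) after E2, 0.63 ± 0.19 (adjusted p = 0.0442) after BPA and 0.94 ± 0.19 (adjusted p = 0.00196) after HPTE. The BPA change was 0.96, adjusted p = 3.97e-04 without BPA replicate 2, and its call was lost without BPA replicate 1 (0.45, adjusted p = 0.204), BPA replicate 3 (0.49, adjusted p = 0.189), vehicle replicate 1 (0.61, adjusted p = 0.137), vehicle replicate 2 (0.62, adjusted p = 0.0997) or vehicle replicate 3 (0.67, adjusted p = 0.064). The HPTE call of Adamts2 was lost with slide as a block (0.63, adjusted p = 0.071) and with spike-in scaling (0.61, adjusted p = 0.226). The second Adamts2 probe gave 1.15 after E2, which was called, and 0.41 (adjusted p = 0.293) after BPA and 0.26 (adjusted p = 0.44) after HPTE. Adamts3 changed by 0.87 ± 0.11 (adjusted p = 6.49e-06) after E2 and by -0.13 and -0.09 after BPA and HPTE, neither called. The second Adamts3 probe was called after E2 at 24 h (0.63, adjusted p = 0.00613) and already at 2 h (0.62, adjusted p = 0.00885). At 2 h after E2 the first probe gave 0.03 (adjusted p = 0.891). Adamts6, Adamts10 and Adamts19 were lower after E2 at 24 h (-1.52, -0.90 and -1.17), and Adamts19 was lower after BPA (-0.59) and HPTE (-0.50) as well. The changes of Adamts12, Adamts16 and Adamts18 lay between -0.58 and 0.90 over the 6 comparisons.

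The Adam genes of the male germ line, whose proteins serve sperm maturation and egg binding, included the gene with the lowest change of all 61 in each of the 6 comparisons with vehicle. Among the called genes this was Adam18 (-2.45) at 2 h after BPA and Adam32 in the other comparisons. Adam32 was at -2.10, -3.19 and -3.74 on the vehicle arrays and ran from -5.72 to -4.87 at 2 h after BPA, from -6.65 to -5.97 at 24 h after BPA and from -9.11 to -6.03 in the other 4 groups, where 9 of 11 arrays were not well above background. It was at least 14.1-fold lower than vehicle at 2 h after E2, at least 15.2-fold lower at 24 h after E2 and at least 16.2-fold lower at 24 h after HPTE, where no array was well above background. These bounds set the mean of the vehicle arrays against, on each dim array, the higher of the probe's own value and the lowest signal that was well above background. After BPA and at 2 h after HPTE the changes were -2.36 ± 0.52 (adjusted p = 0.0015), -3.33 ± 0.52 (adjusted p = 7.39e-04) and -3.95 ± 0.52 (adjusted p = 1.70e-05).

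Adam3, in the same cluster on chromosome 8 and well above background on all arrays, was at 0.68, -1.08 and -1.40 on the vehicle arrays, -5.95, -4.87 and -4.54 at 2 h after E2, -2.38, -2.67 and -3.50 after BPA and -3.60, -4.72 and -4.58 after HPTE. At 24 h it was at -5.73 and -4.79 after E2, -4.11, -3.65 and -3.56 after BPA and -5.14, -5.34 and -4.50 after HPTE. No treated array reached the vehicle arrays, and vehicle replicate 1 stood above the other 2. The changes were -4.52, -2.25 and -3.70 at 2 h and -4.66, -3.17 and -4.39 at 24 h, each called.

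Adam2 (fertilin beta) and Adam18 were called lower in all 6 comparisons too. Adam2 was at -1.63, -2.71 and -3.35 on the vehicle arrays and changed by -3.87, -2.07 and -3.44 at 2 h and by -4.66, -3.26 and -4.27 at 24 h, each called. The BPA call of Adam2 at 2 h was lost without vehicle replicate 1 (-1.60, adjusted p = 0.0999) or BPA replicate 3 (-1.60, adjusted p = 0.0895). Adam18 was at -1.19, -2.86 and -3.16 on the vehicle arrays and changed by -4.72, -2.45 and -3.61 at 2 h and by -4.55, -3.02 and -4.16 at 24 h, each called. Only 1 of 3 E2 2 h arrays and 1 of 2 E2 24 h arrays were well above background for Adam18, and 2 of 3 and 1 of 2 for Adam2, so the sizes after E2 rest on dim arrays. With normexp background correction the changes at 2 h after E2 were -1.94 for Adam18, -1.72 for Adam2 and -1.61 for Adam32, each still called. Adam24 and Adam30 were well above background on every array in the vehicle group alone, so that the filter itself kept them for being high there, and their calls are a description. Adam24 was at -3.81, -5.22 and -5.87 on the vehicle arrays and well above background on only 1 treated array, BPA 2 h replicate 1 (-6.89). It was at least 3.63-fold and 4.8-fold lower at 2 h after E2 and HPTE, and at least 3.9-fold, 3.92-fold and 4.17-fold lower at 24 h after E2, BPA and HPTE.

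Markers of maturing sperm cells also summed to less on every treated array than on any vehicle array. Prm1 (protamine 1), which packs sperm DNA, ran from 3.99 to 5.74 on the vehicle arrays and from -2.81 to 2.69 on the treated arrays. Of the 17 tested sperm markers, 17 were called lower at 2 h after E2 and HPTE and 16 after BPA, with medians of -4.45, -3.45 and -2.36, in the order E2, HPTE and BPA. At 24 h 17, 17 and 16 were called lower, with medians of -4.87, -4.25 and -3.19 in the same order. Over all probes, 28.1%, 48.1% and 49.4% were called at 2 h and 63.8%, 34% and 13.1% at 24 h, in that order. A marker was tested if every array of 1 group was well above background. A high level in the vehicle group alone was enough, so these calls are a description. Of all 19, 17 to 19 were well above background on each vehicle array and 10 to 13 on each E2 24 h array, and Izumo1, a sperm protein of egg fusion, was not well above background on any treated array. The summed level of Adam2, Adam3, Adam18, Adam24 and Adam32 was 2.66 on vehicle replicate 1, 0.901 on replicate 2 and 0.682 on replicate 3, in the same order as the sperm markers (121, 40.1 and 35.9). The part of such RNA in the result was not tested. Adam1b, Adam4, Adam5, Adam6, Adam21, Adam25, Adam26a and Adam30, other genes of the group, had changes between -3.39 and 0.33 on the brightest probe, some of them on arrays not well above background. Second probes fell further: that of Adam1b changed by -5.86, -2.66 and -4.21 at 2 h and by -5.97, -3.43 and -5.61 at 24 h, and that of Adam5 by up to -5.22 at 24 h after E2, each called.

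**Figure D5:**
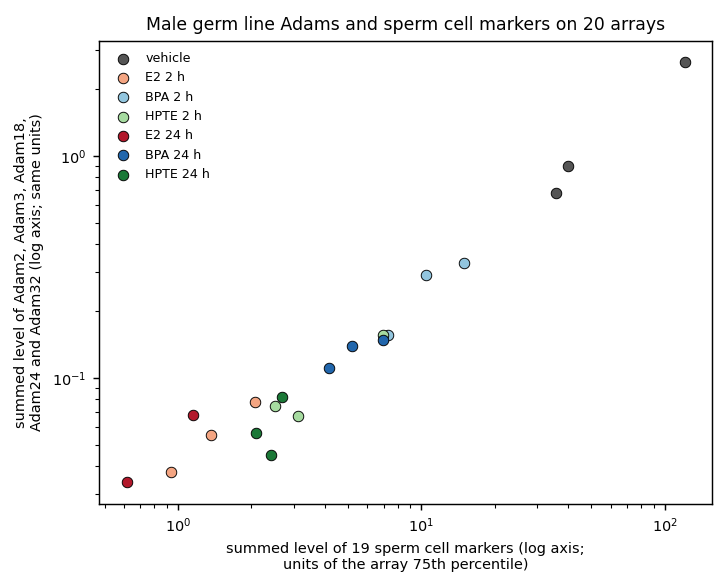
Summed level of the 5 germ line genes Adam2, Adam3, Adam18, Adam24 and Adam32 (vertical axis, log scale) against the summed level of the 19 sperm cell markers (horizontal axis, log scale), both in units of the array's 75th percentile, with 1 point for each of the 20 arrays coloured by group. The 3 vehicle arrays lie at the upper right, the BPA arrays in the middle and the E2 and most HPTE arrays at the lower left.

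Adam5 and Adam1a, also known from the germ line, changed less after BPA and HPTE at 24 h than the 5 genes above. Adam5 was at -0.92, -1.62 and -1.74 on the vehicle arrays (values chosen for display after they were seen), -1.68, -1.69 and -1.62 at 24 h after BPA and -4.35 and -5.29 at 24 h after E2. The BPA change was -0.24 ± 0.22 (adjusted p = 0.526) and the E2 change -3.39 ± 0.25 (adjusted p = 2.58e-08), whereas the second Adam5 probe gave -2.96 after BPA and -5.22 after E2. Adam1a was at -0.07, -0.23 and -0.17 on the vehicle arrays and -2.10 and -2.35 at 24 h after E2, a change of -2.06 ± 0.11 (adjusted p = 1.87e-09), beside -0.55 after BPA and -0.81 after HPTE. Adam9, a somatic sheddase at chr8:23703096-23703155 in mm7, lies beside Adam32 (chr8:23619897-23619956), and rose by 1.08 at 24 h after E2. Adam6, which lies within the immunoglobulin heavy chain locus, was called at 24 h after HPTE alone (-2.28 ± 0.70, adjusted p = 0.0215), and the call was lost without vehicle replicate 1 (-1.95, adjusted p = 0.0889), HPTE replicate 1 (-2.0, adjusted p = 0.08) or HPTE replicate 2 (-2.03, adjusted p = 0.0733).

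BPA and HPTE were given at the same dose and times and are both bisphenols, in which the carbon between the phenol rings bears methyl groups in BPA and a trichloromethyl group in HPTE. Both pairs of groups were compared over all probes. At 2 h none of the 61 genes was called between HPTE and BPA (12 had an unadjusted p under 0.05, beside 16.2% of all probes), beside 0.437% of all probes by the adjusted p, and 2 were called without BPA replicate 2 and 1 without BPA replicate 3. At 24 h, 1 of 61 was called, beside 4.08% of all probes, and 14 had an unadjusted p under 0.05, beside 21% of all probes. The called gene was Mmp10, lower after HPTE, with a difference of -0.65 ± 0.15 (adjusted p = 0.0281), with a 95% interval of -0.97 to -0.33. Mmp10 lost this call without BPA replicate 1 (-0.71, adjusted p = 0.0513), BPA replicate 2 (-0.55, adjusted p = 0.141), BPA replicate 3 (-0.70, adjusted p = 0.0553) or HPTE replicate 2 (-0.44, adjusted p = 0.0988), and with slide as a block (adjusted p = 0.0975). Within the slides that held both groups the Mmp10 difference was -0.30 and -0.97.

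For the other genes the intervals say how large a difference could have been missed. The 95% interval of the HPTE minus BPA difference lay within -1 to 1 for 42 of the 61 genes at 2 h and for 41 at 24 h. For Adamts4 at 2 h it was -0.59 to 1.54 and for Adamts1 -0.62 to 0.10. For Timp3 at 24 h it was -0.62 to -0.15 (adjusted p = 0.0623), and for Adamts9 0.19 to 0.83 (adjusted p = 0.0676). Of the 38 genes called at 24 h after E2, 22 changed in 1 direction in all 3 groups with the size ordered E2, HPTE and BPA. This count has no test, because the groups share the vehicle arrays, and the share over all probes was not counted. The 38 include 11 male germ line Adam genes, of which Adam2, Adam3, Adam18 and Adam32 fell in this order. The medians of the sperm cell markers had the same order (-4.87, -4.25 and -3.19).

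Against E2 at the same time, with the doses unequal, 15 of the 61 genes were called at 2 h between BPA and E2 (19% of all probes) and 9 between HPTE and E2 (16.6% of all probes). The first count was 9 without BPA replicate 2 and the second 5 without HPTE replicate 3. With no scaling, 13 of 14 and 15 of 15 of the called genes were higher than in E2, against 6 of 15 and 4 of 9 with the scaling used, and with spike-in scaling 3 of 3 and 1 of 1. At 24 h the counts were 38 between BPA and E2 (57.8% of all probes) and 26 between HPTE and E2 (48.8% of all probes), of which 28 and 19 were higher than after E2, against 12 of 19 and 5 of 12 with spike-in scaling and 14 of 23 for HPTE with no scaling. The largest difference was that of Mmp12, higher after BPA than after E2 by 3.84 ± 1.24 (adjusted p = 0.0155), beside the macrophage markers given above. Adam5 (3.16), Mmp10 (2.92) and Mmp9 (2.81) were higher, and Mmp7 (-1.60), Mmp17 (-1.36) and Adamts9 (-1.24) lower, after BPA than after E2.

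The change from 2 h to 24 h within each compound does not use the vehicle arrays. It was called for 30 of the 61 genes after E2 (12 higher at 24 h), 31 after BPA (23 higher) and 32 after HPTE (20 higher), beside 56%, 48.4% and 54.1% of all probes. With no scaling 16 of 31, 9 of 17 and 9 of 24 called genes were higher at 24 h and with spike-in scaling 8 of 17, 4 of 7 and 1 of 18, and the BPA count was 20 without BPA 2 h replicate 1. Adamts4 was lower at 24 h than at 2 h, with changes of -3.14 after E2, -4.40 after BPA and -4.80 after HPTE, and Adamts1 fell by 1.91, by 2.58 and by 2.16. Mmp28 was higher at 24 h by 1.11, 1.92 and 2.25 and Adam28 by 0.85, 1.55 and 1.24. Adamts9 was higher at 24 h than at 2 h after E2 (1.37), lower after BPA (-0.55) and not called after HPTE (-0.27). Its second probe stood 2.18 above vehicle at 2 h after E2 and 1.23 above it at 24 h.

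Other genes of the same pathways were read from lists of named genes. Their counts are to be read against the shares of all probes called after E2, BPA and HPTE, which were 28.1%, 49.4% and 48.1% at 2 h and 63.8%, 13.1% and 34% at 24 h, and to which several of them were near. Of 6 tested genes of plasminogen activation, which feeds into Mmp activation, 2 rose at 2 h after E2, and 2 rose and 1 fell after BPA and after HPTE. Plaur, the urokinase receptor, rose by 2.03, 2.69 and 2.66 and Plau, urokinase itself, by 1.97, 1.26 and 1.61. Plat, the tissue-type activator, changed by -1.74 ± 0.19 (adjusted p = 1.26e-06) at 24 h after E2. The median of the list at 2 h was 0.00092, -0.23 and -0.21, against -0.06, -0.10 and -0.09 over all probes.

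Of 16 tested inhibitors and activators of metalloproteases, 5, 7 and 7 were called at 2 h after E2, BPA and HPTE (2, 3 and 4 of them higher) and 11, 2 and 4 at 24 h (6, 1 and 2 higher). Adamtsl2, an Adamts-like matrix protein without protease activity, was higher than vehicle by 3.36, 4.02 and 4.87 at 2 h, beside 4.16, 4.49 and 4.96 for Adamts4. At 24 h after E2, A2m, the broad protease inhibitor alpha-2-macroglobulin, rose by 2.80 ± 0.43 (adjusted p = 3.82e-05), while Adamtsl3 (-2.48 ± 0.24, adjusted p = 4.65e-07) and the testican Spock2 (-2.17 ± 0.15, adjusted p = 1.54e-08) fell. A2m was also called at 24 h after HPTE (1.26).

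Of 19 tested ligands and receptors shed by Adam proteases, 5, 13 and 10 were called at 2 h (4, 8 and 6 higher) and 9, 1 and 6 at 24 h (2, 0 and 2 higher). Hbegf, a growth factor released by Adam17 and other sheddases, rose by 2.02, 2.59 and 2.65 at 2 h, while the levels of Adam10 and Adam17 were as given above. Btc, a related ligand, fell after BPA (-1.57) and HPTE (-1.39), and Jag1, a Notch ligand, after BPA (-1.52), HPTE (-1.41) and, at 24 h, E2 (-1.63). Nrg1 rose at 2 h after E2 (1.86 ± 0.43, adjusted p = 0.00416), and its changes after BPA and HPTE were 0.66 and -0.23, neither called. The difference between the compounds was not tested for this gene.

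Of 6 tested proteoglycan substrates and link proteins, 0, 1 and 1 were called at 2 h and 1, 0 and 1 at 24 h. Vcan (versican, listed on the array as Cspg2), the substrate of Adamts1, Adamts4 and Adamts9, was at its highest at 24 h after E2 (2.27 ± 0.20, adjusted p = 1.76e-07), was called after HPTE (0.80 ± 0.18, adjusted p = 0.00338) and changed by -0.26, -0.42 and -0.16 at 2 h. Hapln4, a link protein, was called at 2 h after BPA (1.83) and HPTE (2.14) and changed by 1.69 after E2 without a call. Of 15 tested other matrix-degrading and matrix-linking enzymes, 2, 5 and 7 were called at 2 h (1, 2 and 5 higher) and 8, 5 and 6 at 24 h (6, 5 and 6 higher). After E2 at 24 h the collagen cross-linking enzymes Loxl4 (1.52) and Loxl2 (1.31) and the collagen-degrading cathepsin Ctsk (1.24) rose, and Lox, which also cross-links collagen, fell at 2 h after BPA (-0.88) and HPTE (-1.24).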

How the data were processed

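RNA of 20 uteri (500 ng each) was labelled with a single dye and hybridised to 20 one-colour Agilent mouse arrays. The deposited scanner files hold, per the file headers, intensities that the authors extracted with Feature Extraction 9.5.3.1 (given as Agilent Feature Extraction 9.5 in the submitters' processing notes), already corrected for background and not scaled between arrays. Probe positions in them refer to mouse build mm7. The authors also deposited a table of processed intensities, which on the linear scale matched the scanner values of all 20 arrays within a relative tolerance of 1e-06 and was not used separately.

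Of 45018 spots, 1639 control spots and the 46 to 134 outlier spots of each array were left out and spots of the same probe were averaged, which gave 41174 probes. Log2 intensity minus the array's 75th percentile (1320 to 2046 in intensity) was fitted with limma 3.58.1 (R 4.3.3) as 1 mean per group over all 7 groups, for the 32460 probes that had 1 group or more with every array well above background. Adjusted p-values are Benjamini-Hochberg values over all those probes, with 0.05 as the threshold. The fit was tested on simulated data with known changes. With 2 or 3 arrays a group, the number of arrays limits the precision. Nothing in the labels ties the replicate numbers to a shared litter or day, and p-values measure only the spread between these arrays.

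Every gene of the 4 families may be named with its level or its called changes. Values are given array by array for the 5 largest increases and decreases per comparison with vehicle among called genes whose arrays did not overlap, for Timp1, Timp2, Timp3, Timp4, Mmp2, Mmp9, Mmp14, Adam10, Adam17 and Adamts1, and for genes called between HPTE and BPA. Genes of other lists are named where called, at most 4 a list. 1 gene of the plasminogen list is not reported here and is not in its counts. The genes, lists and tests were chosen with earlier results of these data known. Promoter windows came from RefSeq. Alternatives were other scalings and background corrections, other filters, the second probe of a gene, fits on the compared groups alone, slide or replicate number as a block, and leaving out each array.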

Additional observations from a re-analysis of the deposited data

Results flagged for a closer look

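Genes called in opposite directions against vehicle at the 2 times stood out in the comparison of 24 h with 2 h. The membrane protease gene Mmp16 was lower than vehicle at 2 h after E2 (-0.29) and higher at 24 h (0.24), and the difference between the times was 0.53 ± 0.09 (SE, limma adjusted p = 1.35e-04). After BPA Mmp16 was at -0.26 and 0.29 against vehicle, and the times differed by 0.55 ± 0.08 (SE, limma adjusted p = 4.90e-05). Mmp15, another membrane protease gene, was at -0.40 and 0.49 after HPTE, with a difference of 0.89 ± 0.15 (SE, limma adjusted p = 1.08e-04). Timp3, the matrix-bound inhibitor, went the other way after HPTE, from 0.44 at 2 h to -0.56 at 24 h, a difference of -1.003 ± 0.11 (SE, limma adjusted p = 2.30e-06). In each of these 4 cases the arrays of the 2 times did not overlap. Of the 8 calls against vehicle behind them, the 2 of Timp3 were kept without any 1 array and 6 were not. Mmp16 lost its call at 2 h after E2 without vehicle replicate 3 (-0.26) or E2 replicate 2 (-0.22), at 24 h after E2 without vehicle replicate 1 (0.22) or 2 (0.23) or E2 replicate 2 (0.15), at 2 h after BPA without vehicle replicate 3 (-0.23) or BPA replicate 1 (-0.24) or 2 (-0.22), and at 24 h after BPA without vehicle replicate 1 (0.27) or 2 (0.29) or BPA replicate 1 (0.26) or 3 (0.28). Mmp15 lost its call at 2 h after HPTE without vehicle replicate 2 (-0.37) or 3 (-0.35) or HPTE replicate 1 (-0.42) or 2 (-0.30), and at 24 h without vehicle replicate 1 (0.41) or HPTE replicate 1 (0.48) or 3 (0.43). Both Mmp15 calls were also lost with slide as a block and without scaling. With spike-in scaling all 8 calls were lost, those of Timp3 among them. The same 3 vehicle arrays stand behind both times, and no vehicle array of 2 h was analysed here. HPTE had no slide that held arrays of both times.

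Mmp10 was the single gene of the families called between HPTE and BPA at 24 h, with a difference of -0.65 ± 0.15 (HPTE minus BPA, SE, limma adjusted p = 0.0281). It was -0.49 and not called without the 2 arrays of the sixth slide, which were scanned on a later day than the others.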

How the results depend on the processing

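The counts of called genes are given below where another setting moved them by over 1.5 times. Scaling to the spike-in probes, of which there are 8, gave 11 (E2), 19 (BPA) and 19 (HPTE) at 2 h, 6 (BPA) and 12 (HPTE) at 24 h, 3 for BPA against E2 and 1 for HPTE against E2 at 2 h, 19 and 12 for the same pairs at 24 h, 0 for HPTE against BPA at 24 h, and 17, 7 and 18 between the times for E2, BPA and HPTE. Without scaling the counts were 15 for HPTE against E2 at 2 h, 0 for HPTE against BPA at 24 h and 17 between the times for BPA. With the compared groups alone they were 6 for BPA at 24 h and 0 both for BPA against E2 at 2 h and for HPTE against BPA at 24 h. With slide as a block they were 7 for BPA and 14 for HPTE at 24 h, 9 and 5 for BPA and HPTE against E2 at 2 h, 0 for HPTE against BPA at 24 h and 17 between the times for HPTE. For HPTE against BPA at 24 h quantile normalization gave 2, normexp with quantile normalization 3 and the second probe 2. In settings chosen after seeing the data, leaving out the sixth slide gave 8 for BPA, 17 for HPTE and 0 for HPTE against BPA at 24 h, and leaving out the male germ line Adam genes, which leaves fewer genes to count, gave 11 for E2 at 2 h, 6 for BPA at 24 h and 14 for HPTE at 24 h. Apart from the germ line case, the cause was not tested.

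Of the changes of called genes, 6 turned direction with the second probe: Adam28 was at 0.18 (E2) and 0.17 (HPTE) at 2 h, Adam33 at 0.17 (BPA) and 0.24 (HPTE) at 2 h, and Adamts12 at -0.17 and Mmp24 at 1.35 at 24 h after E2. With spike-in scaling Adam15 was at -0.082 at 24 h after HPTE. The cause was not tested. The median change of all probes ran from -0.15 to 0.13 as reported, from -0.49 to 0.27 with spike-in scaling and from -0.29 to 0.36 without scaling.

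Leaving out each array in turn gave 17 to 22 (E2), 27 to 29 (BPA) and 27 to 33 (HPTE) called genes at 2 h and 33 to 39, 8 to 16 and 18 to 25 at 24 h. Against E2 it gave 9 to 21 (BPA) and 5 to 8 (HPTE) at 2 h and 29 to 36 and 22 to 26 at 24 h, and between HPTE and BPA 0 to 2 at 2 h and 0 to 1 at 24 h. Between the times it gave 26 to 30 (E2), 20 to 30 (BPA) and 24 to 29 (HPTE).

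Replicate numbers did not pair the arrays: the deviations of same-numbered arrays correlated at -0.36 to 0.33 (median -0.05), and 5 of 20 arrays correlated best with an array of their own number. With replicate number as a block the counts were 20, 30 and 32 at 2 h and 39, 12 and 26 at 24 h for E2, BPA and HPTE, and no count moved by over 1.5 times. Signal over background limits the dim germ line genes, whose folds are bounds where no array of a group was well above background and rest on dim arrays elsewhere.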
